A study of Mus musculus with 12 samples.

Results

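CD8 T cells cultured toward the Tc17 fate, with and without the transcription factor STAT3, were compared across genes on 6 of the 12 arrays of the series, 3 from wild-type (WT) and 3 from STAT3-/- cells. Naive CD8 T cells were sorted from mouse spleen, WT on one side and Cd4cre+ STAT3fl/fl on the other, and mixed at a 1:1 ratio. The mixture was activated with anti-CD3 (1 µg/ml) and anti-CD28 (3 µg/ml) and kept for 4 days, of which 3 were with IL-6 and TGF-beta and 1 more with IL-2. Both genotypes therefore shared 1 culture medium, and they were sorted apart afterwards by allelic surface markers. The other 6 arrays, used here to share the estimate of spread and to ask where the effect differed, came from Tc1 cells of the same 2 genotypes, kept with IL-12 in place of IL-6 and TGF-beta. The Cre recombinase was driven by the Cd4 promoter, so the deletion covers T cells and not other cells. The labels give no age or strain, and the genotypes also differed in the allelic marker used to sort them, so STAT3 loss and anything linked to that marker cannot be told apart. Each group had 2 biological arrays and 1 technical array, which was averaged with biological replicate 2 because it carries that number, so n = 2 samples per group.

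STAT3 is activated by receptors of the IL-6 family, whose shared chain gp130 recruits Janus kinases that phosphorylate it. It then pairs, enters the nucleus and binds DNA, and in T cells it cooperates with the AP-1-like factor BATF and with IRF4 to open the type 17 program. Tc17 cells are CD8 T cells that make IL-17 and little granzyme, and they are known for plasticity toward a cytotoxic, interferon-gamma-producing state.

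Values are RMA values on the log2 scale, and a change is STAT3-/- minus WT, so that 1 unit is a 2-fold difference. A gene was called when its adjusted p from limma was under 0.05 over the 9862 genes tested, which were those with a group mean of at least 5. Array medians over all probe sets lay between 3.95 and 4.10. The Tc17 WT technical array stood apart, with a median correlation with the other arrays of 0.933, against values between 0.961 and 0.986 for the other 11. In every group the technical array differed more from biological replicate 2 than the 2 biological arrays differed from each other. The SD of these differences over tested genes was 0.35 against 0.19 in Tc17 WT and 0.21 against 0.15 in Tc17 STAT3-/- cells. It was 0.25 against 0.14 in Tc1 WT and 0.29 against 0.19 in Tc1 STAT3-/- cells. Stat3 itself read 10.72, 10.69 and 10.38 on the WT arrays and 7.80, 7.93 and 7.59 on the STAT3-/- arrays. The 7 markers of CD8 T cells on the array were all tested and averaged 10.4 to 10.5 per array in WT and 10.5 to 10.6 in STAT3-/- cells, which is high in both. Cd8a itself was called higher by 0.30 ± 0.09 (adjusted p = 0.0446), a call lost under 12 of 23 alternatives. Of 8 B cell markers 3 passed the filter. Ighm and Cd79b were higher in STAT3-/- cells. Ebf1 was lower, but it passed the filter only through Tc17 WT cells, which fixes its direction. The whole list averaged 4.89 to 4.93 per array in WT and 4.88 to 4.91 in STAT3-/- cells. Ighm read 9.12, 9.03 and 9.11 on the WT arrays and 10.76, 10.85 and 11.08 on the STAT3-/- arrays, well above background. Cd79b read 6.88, 6.77 and 6.58 on the WT arrays and 7.62, 7.55 and 7.44 on the STAT3-/- arrays. The B cell markers that did not pass, Cd79a, Cd22, Ms4a1, Pax5 and Blk, reached at most 4.29 on any Tc17 array. Of 12 myeloid markers 2 passed, Cd68 (lower) and Cst3 (not called), and the whole list averaged 4.01 to 4.16 per array in WT and 3.95 to 4.03 in STAT3-/- cells. Cd68 read 7.99, 7.95 and 7.77 on the WT arrays and 6.74, 6.85 and 6.89 on the STAT3-/- arrays. Cst3 read 7.66, 7.74 and 7.74 on the WT arrays and 7.79, 7.82 and 8.20 on the STAT3-/- arrays. The other myeloid markers, among them Lyz2, Itgam, Csf1r and Cd14, reached at most 4.28 on any Tc17 array. Of 5 markers of CD4 and regulatory T cells 4 passed, and Foxp3 was called higher by 1.0 (8.11, 7.90 and 8.89 on the STAT3-/- arrays against 6.87, 6.72 and 8.53 on the WT arrays, which overlap). That list averaged 6.81 to 6.90 per array in WT and 6.83 to 6.90 in STAT3-/- cells. The part of other cells in the results was not tested. In bulk RNA fewer cells of a type and less RNA per cell cannot be told apart.

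STAT3 loss touched a large share of the transcriptome of Tc17 cells. Of the genes tested 25.1% were called, 18.2% higher (1799 genes) and 6.83% lower (674 genes), and 305 of them changed at least 2-fold, 144 higher (1.46%) and 161 lower (1.63%). Counts of called genes below are read against these shares. Of the genes tested, 211 had a group mean of at least 5 only in Tc17 WT cells and 54 only in Tc17 STAT3-/- cells. The direction of such genes is fixed by the filter, also where they are counted in a list below. The median change of all tested genes was 0.11, and with every array centred on its tested genes 1085 genes were higher and 1110 lower, so the excess of rises over falls depends on the scaling. The labels do not say that replicates came from separate cultures or animals, so a p-value here reflects sample-to-sample spread that could be technical. The calls thinned to 1005 without STAT3-/- replicate 1 and to 943 without STAT3-/- replicate 2. Among the arrays themselves the 3 WT and 3 STAT3-/- values did not overlap for 44.3% of the genes tested. Outside the type 17 cytokines Il17f, Il17a and Il21, the falls in Tc17 were led by Il24, a cytokine of the IL-10 family (-4.17 ± 0.11, SE), the leukotriene receptor gene Cysltr1 (-3.74 ± 0.11), the protease gene Ctse (-3.23 ± 0.10), Maf (-3.21 ± 0.15), the secreted matrix protein gene Ecm1 (-3.19), the transglutaminase gene Tgm2 (-3.17), Igfbp4, which binds insulin-like growth factors (-3.12), the annexin gene Anxa3 (-3.08) and the membrane transporter gene Slc4a11 (-2.99).

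The rises in Tc17 were led by Clnk, an adaptor of the SLP-76 family (2.95 ± 0.13), the ubiquitin ligase gene Mid1 (2.85), Itih5, a protein that binds hyaluronan (2.73), the interferon-inducible gene Mndal (2.70), the chemokine genes Xcl1 (2.69) and Ccl5 (2.59), Tmem273 (2.50), Ifng (2.35 ± 0.11), the glycogen phosphorylase gene Pygm (2.25), Ly6c2 (2.24), the serotonin synthesis gene Tph1 (2.18) and Gm4759 (2.16). Mid1 rose by 1.49 when both its probe sets were averaged. Tph1 encodes the enzyme that limits serotonin synthesis outside the brain. It read 4.48, 4.24 and 4.97 on the WT arrays and 6.64, 6.20 and 7.39 on the STAT3-/- arrays, so the technical array was the highest of each group. No array of one genotype reached those of the other. Clnk, Xcl1, Tmem273 and Tph1 passed the filter on low values only through Tc17 STAT3-/- cells, and Il24, Cysltr1, Maf, Anxa3 and Slc4a11 only through Tc17 WT cells, which fixes the direction of each. Among genes described below the same holds for Sema6d, Atp1b1 and the uncalled Tgfbr1, which passed only through STAT3-/- cells, and for Dusp3, Sgk1, Bcl6, Tnfrsf23, Tnfrsf25, Tnfsf14, Klrc1, Itga3, Cdh17, Tmem176b, Gcnt2, Cyp11a1, Stra6 and Serpinb1a, which passed only through WT cells.

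**Figure D1:**
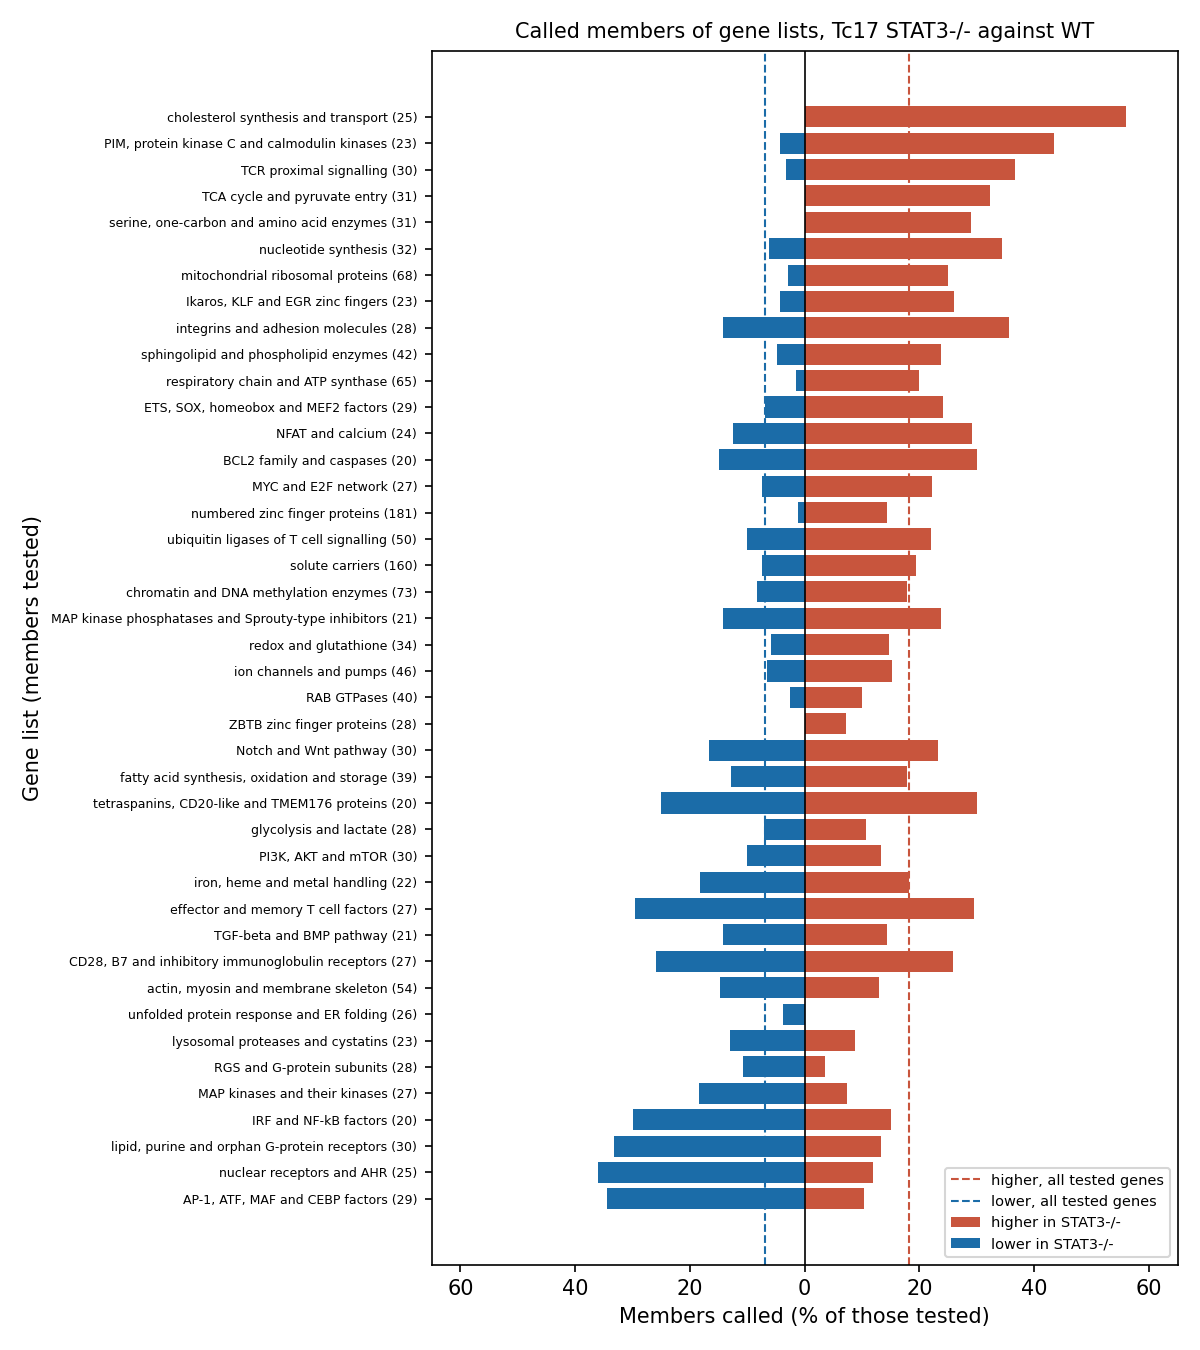
Share of the tested members of each gene list called higher (right, red) or lower (left, blue) in Tc17 STAT3-/- against WT cells, in percent, for the lists plotted, each with at least 20 tested members; dashed lines are the shares over all 9862 tested genes (18.2% higher, 6.83% lower). Cholesterol genes reach 56.0% higher and 0 lower, while AP-1, nuclear receptor and lipid-ligand G-protein receptor genes have more members lower than higher.

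Several transcription factors known to act beside STAT3 in type 17 cells were lower without it. Of 29 AP-1, ATF, MAF and CEBP genes tested 10 fell and 3 rose. Of 25 nuclear receptor and AHR genes 9 fell and 3 rose. Of 20 IRF and NF-kB genes 6 fell and 3 rose, or 4 and 4 after centring on all probe sets. The list medians were -0.15, -0.08 and -0.07 in that order, beside 0.11 for all tested genes. Maf, which drives IL-10 and IL-21 in T cells, read 7.27, 6.84 and 7.37 on the WT arrays. It read 3.75, 4.29 and 4.12 on the STAT3-/- arrays, near background and below every WT array. Batf3, a BATF relative known from dendritic cells and T cell survival, read 7.84, 8.21 and 8.21 in WT and 5.98, 6.07 and 5.55 in STAT3-/- cells, a change of -2.13 ± 0.14 (adjusted p = 1.8e-05). Every WT array lay above every STAT3-/- array.

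Fosl2, an AP-1 subunit that shapes the type 17 program, fell from 9.31, 9.18 and 9.10 on the WT arrays to 7.81, 7.79 and 7.85, a change of -1.41 ± 0.09 (adjusted p = 2.0e-05), with no overlap of arrays. Batf and Irf4, the pioneer pair of T cell activation, moved less. Batf fell by 0.58 ± 0.09 on the log2 scale (adjusted p = 0.00296) and Irf4 by 0.48 ± 0.08 (adjusted p = 0.00428), the latter uncalled without STAT3-/- replicate 1 (0.0533). Bcl3, a nuclear partner of the NF-kB subunits p50 and p52, was 9.25, 9.23 and 9.30 in WT and 7.82, 7.64 and 8.0 in STAT3-/- cells (change -1.44 ± 0.12).

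Among the nuclear receptors, Vdr, the vitamin D receptor, fell from 6.25, 6.50 and 5.86 to 4.71, 4.61 and 4.74, a change of -1.52 ± 0.09 (adjusted p = 1.0e-05). Its highest STAT3-/- array lay more than 1 unit below its lowest WT array. Rora, an orphan nuclear receptor, fell by 0.96 ± 0.13 (adjusted p = 0.00141) and Tiparp, a target and inhibitor of the aryl hydrocarbon receptor, by 1.02 ± 0.15 (adjusted p = 0.00185).

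Of 27 effector and memory factors 8 were higher and 8 lower as deposited, 8 and 11 after centring on tested genes, and 8 and 4 after centring on all probe sets. Satb1, which organises chromatin in T cells, was among the falls, at 9.49, 9.50 and 9.56 on the WT arrays and 7.80, 7.96 and 7.70 on the STAT3-/- arrays (change -1.69 ± 0.09, adjusted p = 9.0e-06). Bcl6, the follicular and memory repressor, fell by 1.10 ± 0.22 (adjusted p = 0.00847, or 0.0581 without STAT3-/- replicate 2). In the opposite direction Prdm1, which encodes Blimp-1 and opposes Bcl6, rose from 6.81, 6.43 and 6.54 to 8.09, 8.13 and 8.17, by 1.47 ± 0.13 (adjusted p = 0.000132). The T-box factors moved less far, Tbx21 by 0.63 ± 0.10 (adjusted p = 0.00323) and Eomes by 0.67 ± 0.16 (adjusted p = 0.0174), and the call of Eomes was lost without 3 of the 4 Tc17 samples (adjusted p up to 0.12). Runx1 was not called (change -0.12 ± 0.11, adjusted p = 0.421).

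Of 23 Ikaros, KLF and EGR zinc finger genes 6 rose and 1 fell, or 6 and 4 after centring on tested genes, quantile normalization or cyclic loess. Klf3, a repressor related to the quiescence factor KLF2, rose from near background, 4.12, 4.53 and 3.96, to 5.93, 6.21 and 6.18, a change of 1.88 ± 0.16 (adjusted p = 9.5e-05). Ikzf2, which encodes Helios, rose from 7.49, 7.60 and 7.97 to 9.02, 9.10 and 9.14, by 1.43 ± 0.14 (adjusted p = 0.000243). For both genes the groups did not overlap. Of 29 ETS, SOX, homeobox and MEF2 genes 7 rose and 2 fell, and the fall of Etv6, an ETS repressor, was the largest change on that list, from 9.56, 9.46 and 9.31 to 7.30, 7.39 and 7.33 (-2.14 ± 0.10, adjusted p = 4.7e-06). Chd7, a chromatin remodeller, fell by 1.08 ± 0.10 (adjusted p = 0.000132). Its list, 73 chromatin and DNA methylation genes, had 13 higher and 6 lower as deposited but 6 higher and 10 lower after centring on tested genes and 5 and 11 after cyclic loess, so no direction holds for it.

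In the large zinc finger families, 15.5% of 181 numbered Zfp genes were called (26 higher, 2 lower; Zfp873 led at 0.76 ± 0.21) and 7.14% of 28 Zbtb genes (2 higher, 0 lower; Zbtb41 at 0.46 ± 0.12), beside 25.1% of all tested genes. The Zbtb counts became 1 higher and 3 lower after centring on tested genes. The calls of Zfp873 and Zbtb41 were lost without 3 of the 4 Tc17 samples (adjusted p up to 0.159 and 0.126). The MYC and E2F network, 27 genes tested, had 6 higher and 2 lower. Myc was not called in Tc17 (change 0.09 ± 0.09, adjusted p = 0.49). Its antagonist Mxd1 fell by 0.62 ± 0.16 (adjusted p = 0.0217), a call lost without any 1 of the 4 Tc17 samples (adjusted p up to 0.122).

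**Figure D2:**
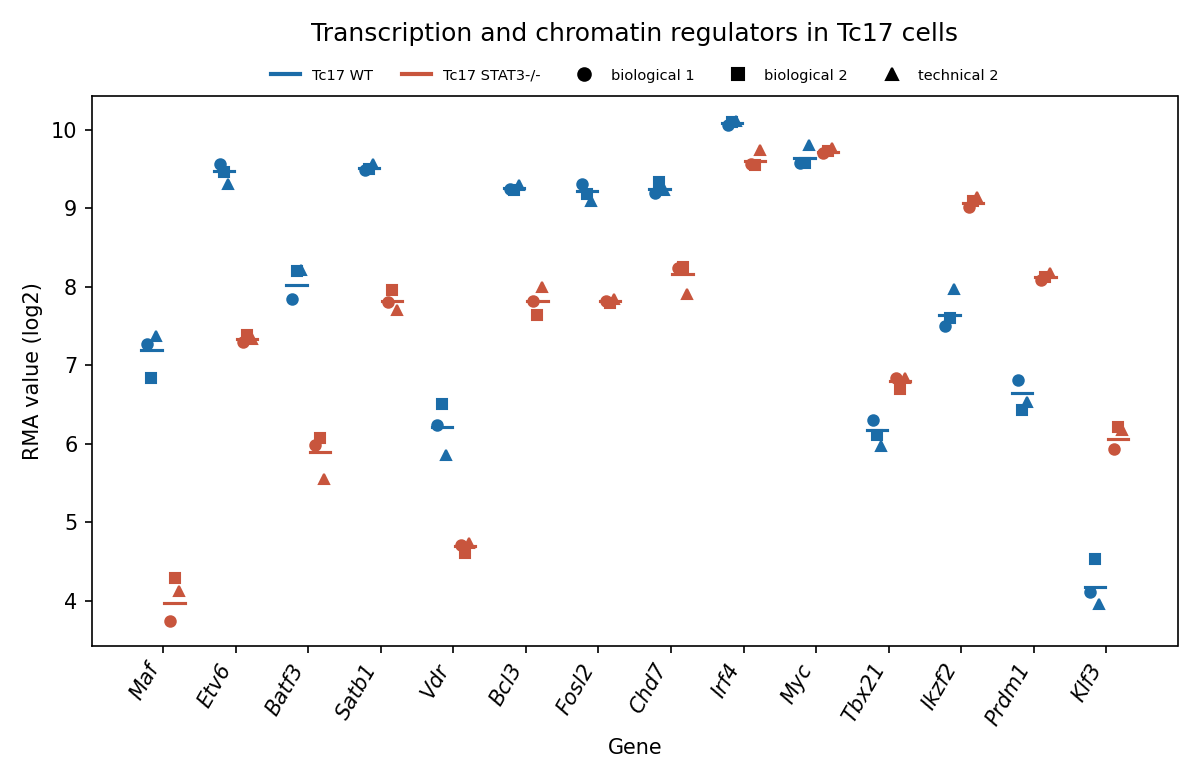
RMA values (log2) of 14 transcription and chromatin regulators on the 3 Tc17 WT arrays (blue) and the 3 Tc17 STAT3-/- arrays (red); circles and squares are biological arrays, triangles technical arrays, and bars are means of the 2 samples. The 9 genes from Maf to Irf4 lie lower in STAT3-/- cells, Myc values meet, and the 4 from Tbx21 to Klf3 lie higher, with no overlap of arrays for any gene but Myc.

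In the IL-6 pathway the binding receptor was lower without STAT3. Il6ra, the binding chain of the IL-6 receptor, read 7.44, 7.59 and 6.92 on the WT arrays and 5.49, 5.47 and 5.25 on the STAT3-/- arrays, a change of -1.93 ± 0.11 (adjusted p = 1.0e-05). The lowest WT array was the technical one, and it still lay above all STAT3-/- arrays. Il6st, which encodes the shared signalling chain gp130, was not called (change 0.40 ± 0.16, adjusted p = 0.0962), but was without the technical arrays (0.36, adjusted p = 0.0186). Of 9 Janus kinase and STAT genes tested, 2 fell, Stat3 and Stat5a, and 1 rose, Stat4. Stat4, which signals for IL-12, rose by 0.60 ± 0.11 (adjusted p = 0.00611, or 0.0559 without STAT3-/- replicate 2). Stat5a fell by 0.30 ± 0.09 (adjusted p = 0.0409), its arrays overlapped between genotypes, and the call was lost under 12 of 23 alternatives. Stat5b was not called (change -0.25 ± 0.09, adjusted p = 0.0799), but was under 7 of 23 alternatives, among them cyclic loess, where it fell by 0.39 (adjusted p = 0.0124). Tyk2 was not called (0.0035 ± 0.11, adjusted p = 0.984).

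Cytokine signal inhibitors had 4 of 17 tested genes higher and 3 lower, an order that turned after centring on tested genes, quantile normalization and cyclic loess (4 higher and 5 lower in each). Socs3, which binds gp130 and blocks STAT3 activation, fell from 7.37, 7.49 and 7.62 to 6.03, 6.03 and 5.94, a change of -1.46 ± 0.10 (adjusted p = 2.0e-05). Socs1, the inhibitor best known for interferon signals, was not called (-0.12 ± 0.09, adjusted p = 0.364).

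Activated STAT proteins bind the motif TTCNNNGAA, which reads the same on both strands. It was searched in the 250 bases before each start in a RefSeq promoter table of GRCm38.p6, which held 106 of the 161 genes lower and 110 of the 144 genes higher by at least 2-fold. At least 1 match was found in 10 of the former (9.43%), in 13 of the latter (11.8%), in 7.22% of the 7872 tested genes listed and in 8.13% of all 27025 genes listed. These shares describe letters near annotated starts and say nothing of distant elements or of binding. Windows around single matches are shown for genes of both directions, 5′ to 3′ on the gene's strand with the motif in capitals, because the same letters stand before genes that fell and genes that rose. Socs3, Batf3, Bcl6, Sgk1 and Tnfrsf25 fell, and Clnk, Rasgrp1 and Ifng rose.
Socs3 (chr11:117969482-117969550, minus strand, motif 154 bases before the start): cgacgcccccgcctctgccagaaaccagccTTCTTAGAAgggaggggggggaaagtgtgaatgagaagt
Batf3 (chr1:191098164-191098213, plus strand, motif 239 bases before the start): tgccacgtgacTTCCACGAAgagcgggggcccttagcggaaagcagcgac
Bcl6 (chr16:23981333-23981401, minus strand, motif 88 bases before the start): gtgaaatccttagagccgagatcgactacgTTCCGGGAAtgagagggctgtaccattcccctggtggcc
Sgk1 (chr10:21881934-21881999, plus strand, motif 223 bases before the start): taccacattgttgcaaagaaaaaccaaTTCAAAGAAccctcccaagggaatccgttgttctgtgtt
Tnfrsf25 (chr4:152116297-152116342, plus strand, motif 16 bases before the start): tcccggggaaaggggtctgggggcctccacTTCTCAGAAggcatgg
Clnk (chr5:38876741-38876809, minus strand, motif 86 bases before the start): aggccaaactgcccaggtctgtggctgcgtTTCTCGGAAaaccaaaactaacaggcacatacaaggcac
Rasgrp1 (chr2:117342959-117343027, minus strand, motif 120 bases before the start): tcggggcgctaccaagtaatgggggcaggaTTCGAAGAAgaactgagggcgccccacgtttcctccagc
Ifng (chr10:118440796-118440835, plus strand, motif 249 bases before the start): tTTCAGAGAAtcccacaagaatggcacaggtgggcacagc

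TCR signalling genes had more members higher than lower. Of 30 tested genes of the receptor complex and its adaptors 11 rose and 1 fell, with a list median of 0.24. After centring on tested genes the counts were 10 and 2, and without STAT3-/- replicate 1 they were 4 and 0. Rasgrp1, which activates Ras on diacylglycerol, read 9.34, 9.44 and 9.11 in WT and 10.34, 10.47 and 10.39 in STAT3-/- cells, a rise of 1.08 ± 0.09 (adjusted p = 6.9e-05). Its WT arrays were all below its STAT3-/- arrays. Clnk, with 3 WT arrays near background at 3.98, 3.64 and 4.61, stood at 6.83, 6.77 and 7.57 in STAT3-/- cells. Of 23 PIM, protein kinase C and calmodulin kinase genes 10 rose and 1 fell, a shift led by Prkca (1.17 ± 0.12) and Camk2n1, an inhibitor of the calmodulin kinase II (1.02 ± 0.14).

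Feedback on the MAP kinases changed in both directions. Of 21 MAP kinase phosphatase and Sprouty-type genes 5 rose and 3 fell. Dusp6, a cytoplasmic phosphatase of ERK, rose from 6.25, 6.54 and 5.90 to 8.11, 8.13 and 8.20, by 1.90 ± 0.12 (adjusted p = 2.0e-05), or by 0.85 when both its probe sets were averaged. Dusp1, an early phosphatase of p38 and JNK, rose by 1.09 ± 0.10 (adjusted p = 0.000145). Dusp3 fell from 5.76, 6.02 and 5.46 to 4.32, 4.17 and 4.37 (change -1.46 ± 0.09) and passed the filter only through Tc17 WT cells. Of the 27 MAP kinase cascade genes 2 rose and 5 fell, though 4 rose and 2 fell after centring on all probe sets. Mapk11, the beta form of p38, fell by 1.07 ± 0.10 (adjusted p = 0.000233).

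In the PI3K pathway 4 of 30 tested genes rose and 3 fell (23.3% called, near the background of 25.1%), and the order turned after centring on tested genes (2 and 3) and after cyclic loess (2 and 3). Inpp4b, a phosphatase that removes the second messenger of PI3K, rose from 8.15, 8.28 and 7.72 to 9.18, 9.35 and 9.19, by 1.15 ± 0.10 (adjusted p = 0.000132). Pik3cg, the catalytic subunit that G-protein receptors use, rose by 1.05 ± 0.08 (adjusted p = 6.9e-05), from 7.76, 7.72 and 7.90 to 8.80, 8.90 and 8.85. Sgk1, a kinase downstream of PI3K that favours type 17 cells, fell by 1.45 ± 0.16 (adjusted p = 0.000382), from 5.74, 5.84 and 6.48 to 4.35, 4.43 and 4.86. The calcium and NFAT list, 24 genes, had 7 higher and 3 lower, but 3 higher and 4 lower after centring on tested genes and after cyclic loess. Ppp3ca, a catalytic subunit of calcineurin, was its largest change, 0.94 ± 0.14 (adjusted p = 0.00183).

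TGF-beta, with which both genotypes were cultured, signals through a receptor pair to SMAD proteins. Of 21 genes of that pathway tested, 3 rose and 3 fell. Smad3, the SMAD most tied to T cell responses, fell from 6.40, 6.40 and 6.29 to 5.51, 5.35 and 5.09, by 1.01 ± 0.12 (adjusted p = 0.000618). Every STAT3-/- array was below every WT array. Tgfbr2 rose by 0.35 ± 0.08 (adjusted p = 0.018), but by 0.21 and uncalled after cyclic loess, and Tgfbr1 was not called (0.62 ± 0.22, adjusted p = 0.0673), but was without Tc17 WT replicate 2 (1.02, adjusted p = 0.00431). Without Tc17 WT replicate 1 the change of Tgfbr1 was 0.23 (adjusted p = 0.239). Tgfb3, a ligand made by type 17 cells, read 8.61, 8.51 and 8.19 in WT and 7.14, 7.10 and 7.98 in STAT3-/- cells (change -1.14 ± 0.31, adjusted p = 0.0273), and its call was lost without any 1 of the 4 Tc17 samples (adjusted p up to 0.157).

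Of 30 Notch and Wnt genes 7 rose and 5 fell, or 6 and 7 after centring on tested genes. Maml2, a Notch coactivator, fell from 8.19, 8.26 and 8.56 to 6.80, 6.87 and 6.84 (-1.47 ± 0.10, adjusted p = 3.4e-05), and Tle4, a Groucho corepressor, rose from 6.49, 6.49 and 6.17 to 7.60, 7.75 and 7.69 (1.25 ± 0.10, adjusted p = 5.9e-05). Ubiquitin ligase and TRAF genes had 11 of 50 higher and 5 lower, among them Traf1, a TNF receptor adaptor (-1.25 ± 0.12). Of 20 BCL2 family and caspase genes 6 rose and 3 fell, or 2 and 3 after centring on tested genes. Bcl2l11, which encodes the death inducer BIM, rose from 5.22, 4.92 and 4.34 to 6.25, 6.19 and 6.30 (1.32 ± 0.17, adjusted p = 0.00107).

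Among RAB and RGS genes the share called was 14.3% of 28 RGS and G-protein subunit genes and 12.5% of 40 RAB genes, beside 25.1% of all tested genes. Rab19 rose by 0.62 ± 0.10 (adjusted p = 0.00304), but by 0.39 and uncalled without the Tc17 WT technical array. Gnal, a stimulatory G-protein alpha subunit, fell by 1.10 ± 0.19 (adjusted p = 0.00411). The Tc17 WT technical array of Gnal, at 5.61, lay within the STAT3-/- arrays.

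Receptors for lipid mediators were among the largest surface losses. Of 30 lipid, purine and orphan G-protein receptors tested 10 fell and 4 rose. Cysltr1, the high-affinity receptor for cysteinyl leukotrienes, read 8.52, 8.39 and 8.44 on the WT arrays and 4.80, 4.49 and 4.84 on the STAT3-/- arrays. Cysltr2, the second receptor of these ligands, read 6.53, 6.66 and 6.21 and 4.79, 4.40 and 4.62, a change of -1.84 ± 0.19 (adjusted p = 0.000348). Ltb4r1, the receptor for leukotriene B4, which draws effector T cells into tissue, read 6.99, 7.14 and 6.53 and 5.0, 5.02 and 4.87 (change -1.94 ± 0.12, adjusted p = 1.2e-05). For all 3 leukotriene receptors the STAT3-/- arrays lay below every WT array.

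Chemokine receptors had 5 of 10 tested members lower and 2 higher, with a list median of -0.58. Of these 10, 2 passed the filter on low values only through Tc17 WT cells and 1 only through STAT3-/- cells, which fixes their direction. With no such filter the list median was -0.09. Ccr7, which guides cells into lymph nodes, fell from 10.03, 10.08 and 9.85 to 8.93, 8.94 and 9.04, by 1.04 ± 0.21 (adjusted p = 0.00843, or 0.0563 without STAT3-/- replicate 1). Cxcr6, a tissue-homing receptor, fell from 6.89, 6.87 and 7.29 to 5.27, 5.35 and 5.48 (-1.64 ± 0.14), and Ccr4, a receptor of skin-homing cells, from 8.97, 8.87 and 8.41 to 7.67, 7.61 and 6.95 (-1.33 ± 0.15). All 3 were lower on every STAT3-/- array. Of 15 common gamma chain and class I cytokine receptors 5 fell and 0 rose, Il6ra leading. Among 12 interferon, IL-10, IL-17 and IL-1 family receptors 3 rose and 2 fell. Ifngr2, the signalling chain of the interferon-gamma receptor, fell from 8.49, 8.54 and 8.41 to 7.34, 7.06 and 7.34 (-1.21 ± 0.10, adjusted p = 9.8e-05), while Il18rap, a chain of the IL-18 receptor, rose by 1.01 ± 0.21 (adjusted p = 0.00959), or by 0.66 without Tc17 WT replicate 2, and was uncalled without STAT3-/- replicate 1 (0.0764).

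In the TNF receptor superfamily 4 of 19 tested genes fell and 2 rose. Of the 19, 2 passed the filter only through Tc17 WT cells and 1 only through STAT3-/- cells, which fixes their direction. Tnfrsf8, which encodes CD30, fell from 9.34, 9.28 and 9.61 to 8.16, 8.06 and 7.12 (-1.51 ± 0.16, adjusted p = 0.00038). Tnfrsf25, the receptor DR3 for TL1A, fell by 1.0 ± 0.12 (adjusted p = 0.000572). The decoy receptor gene Tnfrsf23 fell by 1.01 ± 0.18, or by 1.61 without technical arrays. The technical arrays, at 4.30 in WT and 4.73 in STAT3-/- cells, lay in the reverse order. Of 8 TNF ligands 3 rose and 2 fell. The death ligands rose: Fasl from 5.56, 5.48 and 5.79 to 7.49, 7.45 and 7.69 (1.94 ± 0.09, adjusted p = 5.3e-06) and Tnfsf10, which encodes TRAIL, from 5.36, 5.56 and 4.73 to 6.76, 6.76 and 6.65 (1.48 ± 0.12, adjusted p = 6.3e-05). Tnfsf14, which encodes the costimulatory ligand LIGHT, fell by 1.36 ± 0.11.

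Inhibitory and costimulatory immunoglobulin receptors had 7 of 27 higher and 7 lower as deposited, 5 and 10 after centring on tested genes, and 8 and 5 after centring on all probe sets. Lilrb4a, an inhibitory receptor better known from myeloid cells, fell from 10.42, 10.55 and 9.93 to 7.34, 7.77 and 7.58, a change of -2.82 ± 0.23 (adjusted p = 6.5e-05). Of the myeloid markers Cd68 also fell, Cst3 was not called, and the others reached at most 4.28 on any Tc17 array, as given above. Whether other cells had a part in the fall of Lilrb4a was not tested. The exhaustion-linked receptors Havcr2 (4.64, 4.33 and 4.63 to 6.16, 6.15 and 6.20) and Pdcd1 (7.05, 6.94 and 6.65 to 8.14, 8.03 and 8.37) rose, by 1.60 ± 0.10 and 1.24 ± 0.12. In the SLAM family, self-ligand receptors of lymphocytes, 4 of 8 rose and 1 fell. Slamf1 fell from 9.05, 8.97 and 8.58 to 7.44, 7.18 and 7.46 (-1.53 ± 0.11, adjusted p = 3.6e-05). Cd244a, which encodes 2B4, rose from 4.90, 4.49 and 4.35 to 6.24, 6.33 and 6.31 (1.63 ± 0.15), and Slamf6 rose by 1.09 ± 0.14, or by 0.49 as the average of both its probe sets.

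Killer lectin-like and C-type lectin receptors had 3 of 9 tested genes lower and 0 higher. Of the 9, 2 passed the filter on low values only through Tc17 WT cells, which fixes their direction. Among the genes lower were the paired receptor genes Klrc1 (-1.91 ± 0.15) and Klrd1 (-1.28 ± 0.15). Integrin and adhesion genes had 10 of 28 higher and 4 lower, or 8 and 5 after centring on tested genes. Of the 28, 3 passed the filter only through Tc17 WT cells, which fixes their direction. The list median was 0.04, beside 0.11 for all tested genes. It was 0.11 without STAT3-/- replicate 1 and 0.004 without STAT3-/- replicate 2. Itga3, a laminin receptor chain, fell from 6.95, 6.71 and 6.26 to 4.62, 4.54 and 4.83 (-2.07 ± 0.14, adjusted p = 2.6e-05) and passed the filter only through Tc17 WT cells. The cadherin genes parted: Cdh17 changed by -1.30 ± 0.23 and Cdh1, which encodes E-cadherin, by 1.06 ± 0.21, both called. Cdh1 was highest on the technical array of STAT3-/- cells, 7.01, with 5.75 and 5.76 on its biological counterparts.

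Of 17 LY6 and ectoenzyme genes 8 rose and 3 fell. Bst1, which encodes the ADP-ribosyl cyclase CD157, fell from 6.99, 7.17 and 7.12 to 5.0, 5.40 and 5.48 (-1.85 ± 0.15, adjusted p = 6.3e-05), and Ly6c2 and Ly6g5b rose by 2.24 ± 0.28 and 1.31 ± 0.15. In the semaphorin and guidance list 4 of 18 rose and 4 fell. Sema4f fell from 7.66, 7.61 and 7.70 to 5.14, 5.10 and 4.83 (-2.60 ± 0.10, adjusted p = 1.1e-06), whereas Sema6d (1.73 ± 0.13) and Sema4a, which costimulates T cells (1.08 ± 0.10), rose. Tetraspanin, CD20-like and TMEM176 genes had 6 of 20 higher and 5 lower, in an order that turned to 5 and 7 after centring on tested genes and to 6 and 7 after cyclic loess. The CD20-like Ms4a4b rose (1.85 ± 0.20), and Tspan6 (-1.43 ± 0.13) and Tmem176b, a cation channel of type 17 cells (-1.25 ± 0.19), fell. Among innate receptors 3 of 10 rose and 0 fell, with Tlr6 at 1.18 ± 0.21.

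**Figure D3:**
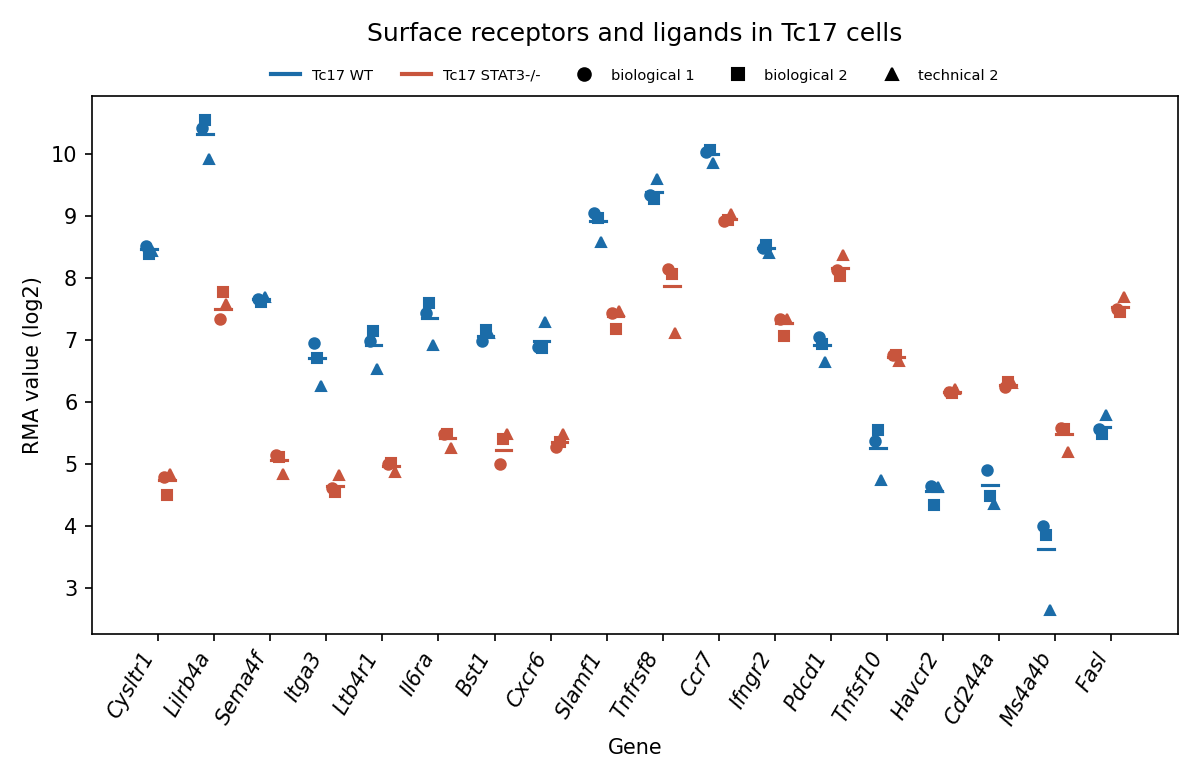
RMA values (log2) of 18 surface receptors and ligands on the 3 Tc17 WT arrays (blue) and the 3 Tc17 STAT3-/- arrays (red), marked by array as circles and squares (biological) and triangles (technical), with bars at the means of the 2 samples. The 12 genes from Cysltr1 to Ifngr2 lie lower in STAT3-/- cells and the 6 from Pdcd1 to Fasl higher, with no overlap of arrays.

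Cholesterol synthesis and transport had 14 of 25 tested genes higher and 0 lower (56.0% called, beside 25.1% of all genes), and the median change of that list was 0.33. Dhcr7, which makes cholesterol from its last precursor, rose from 8.87, 8.66 and 8.03 to 9.50, 9.55 and 9.58, by 0.92 ± 0.16 (adjusted p = 0.00382). The lowest of these values was that of the Tc17 WT technical array. Counts of the cholesterol list higher were 8 after centring on tested genes or cyclic loess, 9 after quantile normalization, 15 without the Tc17 WT technical array, and 7 and 4 without STAT3-/- replicate 1 or 2. The count lower was 0 in each.

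Mitochondrial lists also had more members higher than lower. Of 31 TCA cycle and pyruvate genes 10 rose and 0 fell (list median 0.21), but 0 or 1 rose without STAT3-/- replicate 1 or 2, 2 without Tc17 WT replicate 2, and 4 after cyclic loess. Pdhb, a subunit of pyruvate dehydrogenase, was the largest, at 0.66 ± 0.13 (adjusted p = 0.00696, or 0.0592 without STAT3-/- replicate 1). Of 65 respiratory chain and ATP synthase subunits 13 rose and 1 fell, a share called of 21.5%, under the background, and the number higher was 4 after centring on tested genes, 5 after cyclic loess, and 4 or 2 without STAT3-/- replicate 1 or 2. Atp5mpl, a small ATP synthase subunit, rose from 8.02, 8.21 and 7.60 to 8.72, 8.74 and 8.94 (0.81 ± 0.09, adjusted p = 0.000433). Of 68 mitochondrial ribosomal proteins 17 rose and 2 fell (27.9% called), or 5 and 3 after centring on tested genes, and Mrps17 rose by 0.61 ± 0.10, or by 0.40 as the average of both its probe sets.

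Glycolysis and lactate genes had 3 of 28 higher and 2 lower (17.9% called), or 2 and 4 after centring on tested genes, quantile normalization or cyclic loess. Hk2, the hexokinase that activated T cells induce, fell by 0.30 ± 0.09 (adjusted p = 0.043), a call lost under 11 of 23 alternatives. Ldha changed by 0.27 ± 0.08 (adjusted p = 0.0499), a call lost under 19 of 23. The glucose transporter gene Slc2a1 was not called (-0.05 ± 0.10, adjusted p = 0.737). Against these, 2 muscle-type enzymes rose clearly. Eno3, muscle enolase, read 7.88, 8.02 and 8.28 in WT and 9.39, 9.39 and 9.79 in STAT3-/- cells (1.47 ± 0.13, adjusted p = 0.000132). Pygm, muscle glycogen phosphorylase, read 4.87, 4.80 and 5.12 and 7.07, 7.16 and 7.34 (2.25 ± 0.11, adjusted p = 4.7e-06). Every STAT3-/- array was above every WT array for both. Glycogen and pentose phosphate genes as a list had 5 of 17 higher and 0 lower.

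Fatty acid genes split, 7 of 39 higher and 5 lower, an order that turned under all scalings but centring on all probe sets (4 and 7 after centring on tested genes). Dgat1, which completes triglyceride synthesis, fell from 9.38, 9.14 and 9.57 on the WT arrays to 6.40, 6.57 and 7.09, a change of -2.75 ± 0.14 (adjusted p = 5.7e-06). The highest STAT3-/- array, the technical one, lay below every WT array. Sphingolipid, phospholipid and glycan enzymes had 10 of 42 higher and 2 lower. Smpdl3a, a phosphodiesterase related to acid sphingomyelinase, rose from 5.64, 5.31 and 5.30 to 7.25, 7.15 and 7.32 (1.77 ± 0.15), Fut8, which adds core fucose to N-glycans, rose by 1.14 ± 0.10, and Gcnt2, a glycan branching enzyme, fell by 1.14 ± 0.15.

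Among 11 eicosanoid, retinoid and steroid genes 3 rose and 3 fell. Of the 11, 2 passed the filter only through Tc17 WT cells, which fixes their direction. Cyp11a1, the enzyme that starts steroid synthesis from cholesterol, fell from 6.08, 5.92 and 5.72 to 3.77, 3.58 and 3.89 (-2.20 ± 0.12, adjusted p = 9.0e-06), close to background in STAT3-/- cells. Stra6, a retinol transporter, fell by 1.06 ± 0.21 (adjusted p = 0.00843, or 0.0700 without STAT3-/- replicate 2). Nucleotide synthesis had 11 of 32 genes higher and 2 lower, or 4 and 3 after centring on tested genes, and Adssl1, an enzyme of AMP synthesis, changed by 0.86 ± 0.24 (adjusted p = 0.0304), a call lost without 3 of the 4 Tc17 samples, and by 0.55 without Tc17 WT replicate 2. Serine, one-carbon and amino acid enzymes had 9 of 31 higher and 0 lower, or 5 and 3 after centring on tested genes. Bckdhb, of branched-chain amino acid breakdown, rose from 5.64, 5.60 and 5.46 to 6.99, 6.96 and 6.91 (1.38 ± 0.13, adjusted p = 0.000221).

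Solute carriers followed the background: of 160 tested 31 rose and 12 fell (26.9% called). Slc15a1, the peptide transporter PEPT1, fell from 8.06, 8.40 and 7.52 to 5.45, 5.45 and 5.60 (-2.52 ± 0.15, adjusted p = 1.0e-05), and Slc4a11, of the bicarbonate transporter family, from 7.85, 7.71 and 7.86 to 4.80, 4.56 and 5.15. Slc14a1, a urea transporter, rose from 5.66, 5.82 and 5.44 to 7.12, 7.10 and 7.20 (1.49 ± 0.22). Slc39a14, a zinc and iron importer, fell by 0.97 ± 0.10 (adjusted p = 0.000362), within a metal-handling list of 22 genes with 4 higher and 4 lower. Of 46 ion channel and pump genes 7 rose and 3 fell, or 4 and 8 after centring on tested genes and 4 and 6 after cyclic loess. Aqp3, a water and glycerol channel, fell by 1.01 ± 0.17, or by 0.66 without the Tc17 WT technical array, and the sodium pump subunit gene Atp1b1 rose by 1.01 ± 0.17.

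Redox genes had 5 of 34 higher and 2 lower, or 4 and 6 after centring on tested genes, and Gstt1, a glutathione transferase, fell by 0.90 ± 0.10. Of 26 genes of protein folding in the endoplasmic reticulum 1 was called (3.85%), Atf6, a stress sensor, with a change of -0.63 ± 0.14 (adjusted p = 0.0119, or 0.0945 without STAT3-/- replicate 2). Of the aminoacyl-tRNA synthetases 2 of 18 rose and 0 fell, with Yars at 0.49 ± 0.11, a call lost without either STAT3-/- sample. Lysosomal protease genes had 2 of 23 higher and 3 lower, or 3 and 2 after centring on all probe sets.

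**Figure D4:**
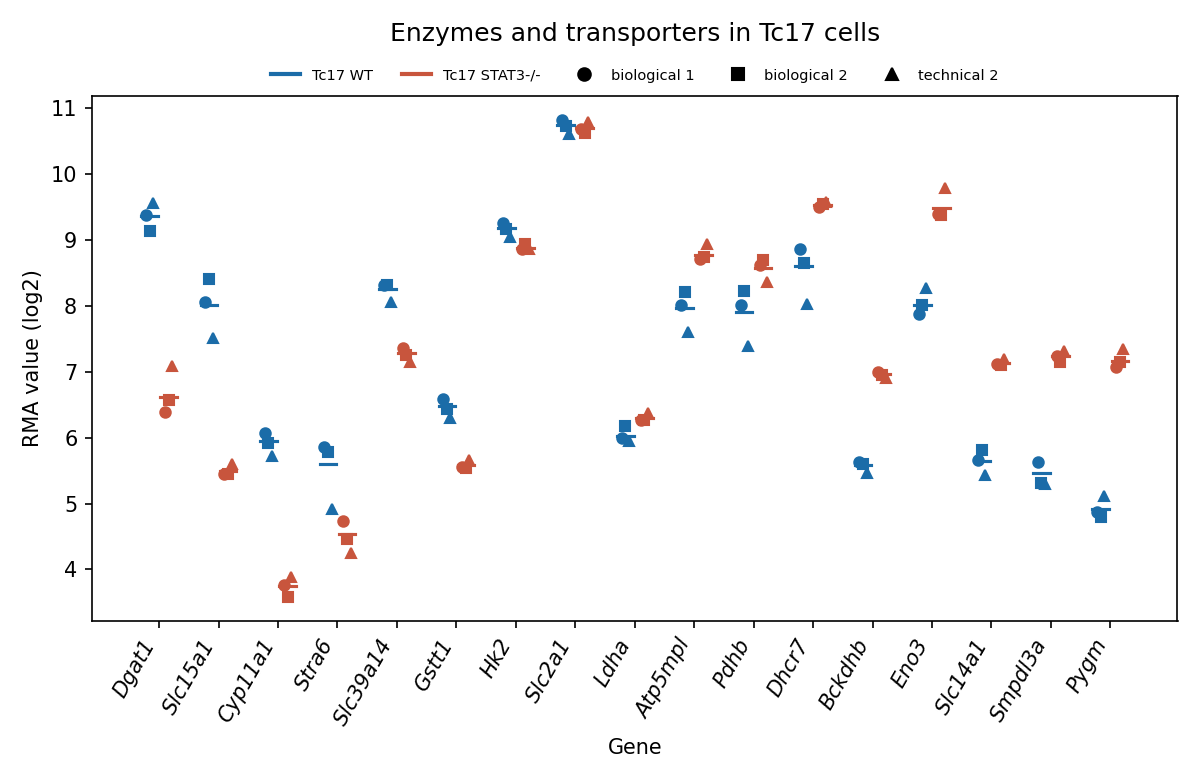
RMA values (log2) of 17 enzymes and transporters on the 3 Tc17 WT arrays (blue) and the 3 Tc17 STAT3-/- arrays (red), with circles and squares for biological and triangles for technical arrays and bars at the means of the 2 samples. Dgat1, Slc15a1 and Cyp11a1 lie lower on every STAT3-/- array, Slc2a1 values meet, and Eno3 and Pygm lie higher in STAT3-/- cells.

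Cytotoxic, secreted and structural genes moved both ways. Of 12 granzyme, perforin and serpin genes 5 rose and 5 fell (83.3% called). The protease inhibitors parted: Serpinb1a, an inhibitor of neutrophil-type proteases, fell by 2.26 ± 0.26 and Serpinf1 by 1.28 ± 0.19, and Serpinb6b rose by 1.26 ± 0.17. Of 18 secreted mediators 4 rose and 6 fell (55.6% called), and Lif, an IL-6 family cytokine that itself signals through gp130, fell from 8.86, 8.82 and 8.94 to 6.03, 6.18 and 5.77 (-2.86 ± 0.16, adjusted p = 9.0e-06). Actin, myosin, annexin and related genes had 7 of 54 higher and 8 lower (27.8% called, near the background of 25.1%), or 9 and 6 after centring on all probe sets. Tgm2, which crosslinks proteins, fell from 9.97, 9.97 and 8.99 to 6.76, 6.70 and 6.01, and its technical arrays were the lowest of each genotype. Myo1e, a membrane-bound myosin, rose from 5.45, 5.22 and 5.27 to 6.69, 6.57 and 6.95 (1.37 ± 0.17).

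In Tc1 cells 0.0608% of the tested genes were called (6 genes, and 370 at an unadjusted p under 0.05; 24 when the technical arrays were left out). The difference between the effect in Tc17 and in Tc1 was called for 676 genes (6.85%), ranging from 244 to 1555 when 1 sample was left out. Among the 132 named genes called in Tc17, 102 also had a called difference, and 30 did not. Most of these genes were chosen for large changes in Tc17, which enter the difference too, so this count is a description set largely by that choice. Of these 30, Stat3 changed by -2.85 ± 0.18 in Tc17 and -2.66 in Tc1, Ctse by -3.23 and -3.38, Mid1 by 2.85 and 3.36 and Bckdhb by 1.38 and 1.08, each called in both cell types. Tlr6 changed by 1.18 in Tc17 and by 1.09, uncalled, in Tc1 (adjusted p = 0.259). By contrast Satb1 changed by -0.13 in Tc1, Etv6 by -0.19, Il6ra by -0.04, Dgat1 by -0.53, Dusp6 by 0.02 and Pygm by 0.07, none called there, and the difference between cell types was called for all 6 (adjusted p from 0.000132 to 0.000506).

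**Figure D5:**
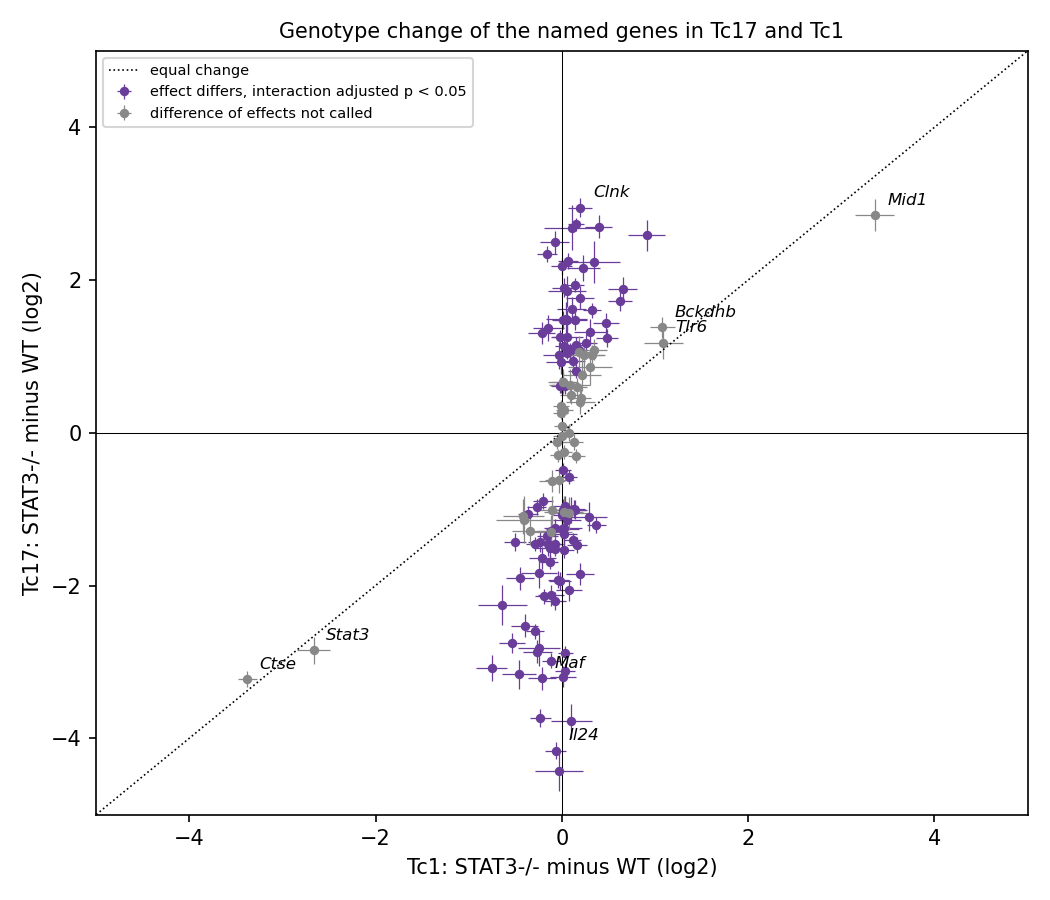
Change of the 140 named genes in Tc1 (horizontal) and Tc17 (vertical), STAT3-/- minus WT on the log2 scale with SE bars from limma, n = 2 samples per group; purple genes had a called difference between the 2 changes (102 genes), grey ones did not, and the dotted line marks equal change. Stat3, Ctse, Mid1, Bckdhb and Tlr6 lie near the dotted line, while most other genes lie near 0 in Tc1.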

How the data were processed

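The deposited values are log2 expression values of 12 Affymetrix arrays (41345 probe sets), made by the authors with RMA and Partek, per the submitters' processing notes; their versions and the genome build were not given in the sources used here. GEO's platform annotation gave 1 gene to 23521 probe sets, several to 1814 and none to 16010. For each of 22180 genes the probe set with the highest mean was kept, and the 9862 genes with a group mean of at least 5 were tested. The technical array of each group was averaged with biological replicate 2. All 4 groups entered 1 limma fit (limma 3.58.1, R 4.3.3; lmFit, contrasts.fit, eBayes), which shares the estimate of spread (4 residual and 4.87 prior degrees of freedom), with Benjamini-Hochberg adjustment over the tested genes and calls at an adjusted p under 0.05. SE is limma's moderated standard error. Figures were drawn with matplotlib 3.10.9. Depth of an array is not a read count, and the number of arrays limits the precision.

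Named genes were Stat3, the 12 largest rises and 12 largest falls among called genes, up to 3 called members with at least a 2-fold change from each of 60 gene lists (or the single largest called member), and a set of pathway genes whether called or not. The genes and lists were chosen with earlier results of these data known, and the tRNA synthetase list was corrected to explicit symbols after it was seen to hold other genes. Lists are described by counts and medians beside all tested genes. Some genes and 1 list are not reported here. On simulated data with 9862 genes, the Tc17 fit recovered 93% of 100 genes changed by a log2 size of 1. It recovered 99% of 100 changed by 2, with 10 false calls. The simulated noise was normal and independent between genes and samples, with no array effects and no change in the other genes. These rates therefore check the fit and do not describe its performance on the real arrays. Alternatives covered the technical arrays, scaling (subtracting from each array its median over tested genes or over all probe sets, called centring, or quantile or cyclic loess normalization), the dim filter, probe set choice, the fit, the replicate block and leaving out each sample.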

Additional observations from a re-analysis of the deposited data

Results flagged for a closer look

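For 102 of the named genes the genotype change in Tc17 cells differed from that in Tc1 cells by a limma interaction test (adjusted p under 0.05), which is what singled them out. Most were named for large changes in Tc17, so their number is set largely by that choice. Values below are the change in Tc17 minus the change in Tc1, on the log2 scale, with n = 2 samples per group. No group had enough samples to test single samples as outliers.

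Among cytotoxic, secreted and structural genes the Tc17 change was more negative for Il24 (-4.10), Igfbp4 (-3.15), Tgm2 (-2.70), Lif (-2.60), Anxa3 (-2.33) and Serpinb1a (-1.62). The Tc17 change was more positive for Xcl1 (2.58), Ccl5 (1.67), Myo1e (1.52) and Serpinb6b (1.20).

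Among metabolism genes the Tc17 change was more negative for Slc4a11 (-2.87), Dgat1 (-2.22), Slc15a1 (-2.13), Cyp11a1 (-2.12), Gcnt2 (-1.20), Aqp3 (-1.11), Slc39a14 (-0.70) and Gstt1 (-0.69). In metabolism genes a more positive change was found for Pygm (2.18), Smpdl3a (1.57), Slc14a1 (1.44), Eno3 (1.42), Fut8 (1.11), Atp1b1 (1.05), Dhcr7 (0.93), Atp5mpl (0.66) and Mrps17 (0.58).

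Among genes outside the lists the Tc17 change was more negative for Il17f (-4.40), Il17a (-3.87), Ecm1 (-3.21) and Il21 (-2.92). In genes outside the lists a more positive change was found for Itih5 (2.58), Tmem273 (2.57), Ifng (2.50), Mndal (2.31), Tph1 (2.18) and Gm4759 (1.93).

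Among signalling genes the Tc17 change was more negative for Maml2 (-1.63), Gnal (-1.40), Dusp3 (-1.38), Sgk1 (-1.30), Arhgef10 (-1.26), Traf1 (-1.18), Socs3 (-1.17), Smad3 (-1.14) and Mapk11 (-0.70). In signalling genes a more positive change was found for Clnk (2.75), Dusp6 (1.88), Tle4 (1.27), Bcl2l11 (1.02), Inpp4b (1.0), Pik3cg (1.0), Dusp1 (0.97), Prkca (0.92), Rasgrp1 (0.90) and Ppp3ca (0.82). Further signalling genes, again more positive in Tc17, were Rab19 (0.63).

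Among surface receptor genes the Tc17 change was more negative for Cysltr1 (-3.50), Lilrb4a (-2.58), Sema4f (-2.31), Itga3 (-2.14), Bst1 (-2.04), Ltb4r1 (-1.92), Il6ra (-1.89), Cysltr2 (-1.59), Ifngr2 (-1.58) and Slamf1 (-1.55). Further surface receptor genes, again more negative in Tc17, were Klrc1 (-1.46), Cxcr6 (-1.43), Tnfrsf8 (-1.38), Ccr4 (-1.35), Tmem176b (-1.27), Tnfsf14 (-1.20), Tspan6 (-1.20), Klrd1 (-1.17) and Tnfrsf25 (-1.14). In surface receptor genes a more positive change was found for Ly6c2 (1.89), Ms4a4b (1.80), Fasl (1.80), Ly6g5b (1.52), Cd244a (1.52), Tnfsf10 (1.47), Havcr2 (1.28), Sema6d (1.10), Sema4a (0.99) and Pdcd1 (0.76).

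Among transcription factor genes the Tc17 change was more negative for Maf (-3.0), Batf3 (-2.01), Etv6 (-1.95), Satb1 (-1.56), Fosl2 (-1.52), Vdr (-1.44), Chd7 (-1.09), Tiparp (-1.02), Rora (-1.0) and Bcl3 (-0.93). Further transcription factor genes, again more negative in Tc17, were Batf (-0.65) and Irf4 (-0.50). In transcription factor genes a more positive change was found for Prdm1 (1.33), Klf3 (1.23), Ikzf2 (0.96) and Tbx21 (0.64).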

How the results depend on the processing

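Of the 132 named genes called in Tc17 none changed direction, and 116 of the 140 named genes kept their side of the threshold under every alternative that gave a value; across named genes and settings 3080 values stayed, 100 lost the threshold and 16 passed it. The number of genes called in Tc17 was 305 with a minimum change of 2-fold (144 higher, 161 lower). Leaving out 1 sample at a time gave 943 to 3191 called genes, 636 to 2557 higher and 307 to 648 lower. After subtracting the median of tested genes 1085 were higher and 1110 lower, after cyclic loess 1139 were higher, and with no filter on dim genes 1167 were higher. The share of calls that were higher was 72.7% as deposited, 49.4% after centring on tested genes, 82.5% after centring on all probe sets, 60.3% after quantile normalization and 54.8% after cyclic loess; the median change of all tested genes under these was 0.11, -0.01, 0.18, 0.04 and 0.02.

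The difference between cell types was called for 1259 genes without technical arrays, 384 with no filter on dim genes, 218 with a minimum of 2-fold, and 244 to 1555 with 1 sample left out. In Tc1 the called genes numbered 24 without technical arrays, 16 with technical arrays averaged with replicate 1, 13 with every array as its own sample, 14 without the Tc17 WT technical array, 13 without both Tc17 technical arrays (added after seeing the data), and 4 to 7 with 1 sample left out. With the replicate block 3056 genes were called in Tc17, 1018 in the difference and 15 in Tc1. The main fit did not treat same-numbered samples of the 2 genotypes as pairs, although the genotypes were cultured as a mixture. Their deviations went together with r = 0.10 in Tc17 and 0.46 in Tc1. With only 2 replicate numbers these values cannot decide whether the samples were paired. The cause of these shifts was not tested. With 2 samples per group, and with dim genes near background, small changes could be missed.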

Other observations

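Probe sets of small nucleolar RNAs, many of which guide the chemical modification of ribosomal RNA, leaned one way in Tc17 cells. The list also holds related Scarna genes, such as Scarna6 and Scarna2, to which that function does not apply. This list was chosen after its values were seen. Of 65 tested, 30 were lower in STAT3-/- cells and 0 higher (6.83% of all tested genes were lower). The median change was -0.63 beside 0.11 for all tested genes. For 42 of the 65 every WT array lay above every STAT3-/- array. The arrays did not overlap for 44.3% of all tested genes, but that share counts both directions, so the 2 values are not alike. Without the technical arrays 32 were lower and 3 higher, with a median of -0.42. The median over the 65 was 8.41, 8.33 and 9.03 on the WT arrays and 7.85, 7.87 and 7.52 on the STAT3-/- arrays, the last of each being the technical array. In Tc1 cells the median change was -0.29 and 0 were called by limma, the array medians running from 6.56 to 8.12. The difference between cell types was called for 3 of the 65. Without STAT3-/- replicate 2 the number lower in Tc17 was 13, and after centring on tested genes 39. RNA recovery and array handling as parts of this shift were not tested.

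Of 70 microRNA genes tested, also a list chosen after its values were seen, 12 were lower and 0 higher. Over all tested genes 6.83% were lower and 18.2% higher. The list had 9 lower and 0 higher without the technical arrays, and 7 lower and 1 higher after centring on all probe sets. Mir142, a microRNA gene of blood cells, changed by -2.20 ± 0.18 (SE, adjusted p = 9.4e-05) in Tc17 and by -0.79, uncalled, in Tc1, and the difference was called (adjusted p = 0.0163). Its samples averaged 8.15 and 8.50 in WT and 5.88 and 6.38 in STAT3-/- cells. Mir5104 changed by -1.53 ± 0.17 (adjusted p = 0.000401). Total RNA probe sets of this kind read the precursor or its host transcript, so levels of the mature microRNAs were not measured. The 2 mature products of Mir142, from RefSeq on GRCm38.p6, are shown because this was the largest microRNA change, with the seed (bases 2 to 8) in capitals; their seeds differ.
miR-142a-5p (chr11:87756867-87756887, plus strand): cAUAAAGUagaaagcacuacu
miR-142a-3p (chr11:87756903-87756925, plus strand): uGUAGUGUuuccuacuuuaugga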
